A study of Xerophyta schlechteri with 51 samples.

Results

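The 6 libraries compared here hold RNA from fully dried leaf blades of Xerophyta schlechteri, 3 from senescent tissue (ST) and 3 from non-senescent tissue (NST), out of 51 libraries in 17 groups of 3. They were chosen by the labelled tissue state and by a labelled water content of <10% RWC (relative water content, where a fully turgid leaf is at its maximum), and the protocol text gives 5% RWC for desiccated leaves. The water content label names the NST, so the stage is that of the NST, and the ST may have held another amount of water. The other groups used below are 3 libraries of pre-senescent tissue (PST) at <10% RWC, and NST, PST and ST at full turgor (no PST there), 75%, 55% and 35% RWC and 48 h after rewatering. All came from leaf blades of 1 species, and no genotype, agent or plant age is given in the sources used here. Whether the 3 libraries of a group stand for separate plants is not stated, so a p-value below covers the spread between libraries, part of which may be technical.

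Xerophyta schlechteri is a resurrection plant. Its vegetative leaves lose nearly all their water, dismantle chlorophyll and thylakoids as they dry, and rebuild them after rain. Surviving tissue enters the dry state with protectants such as sugars and late embryogenesis abundant proteins, and it keeps the RNA with which it restarts. Senescence is another way for a leaf to lose its chlorophyll: an ordered breakdown in which nutrients leave the cells and the tissue dies. The series asked how tissue that senesces during drying differs from tissue that survives. The table gives expression in FPKM (fragments mapped to a transcript, divided by its length and by a measure of the library's size) for 21815 entries under gene IDs. It pairs none of them with a name, so gene functions are not given below and the tissue labels could not be checked against marker genes. Genes are instead grouped by what they did in the other 45 libraries.

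In the fit on all 51 libraries, dry ST and dry NST differed in about 1 tested gene in 5. The larger differences were mostly upward in ST. Of 18717 genes tested, 3473 passed limma's adjusted p threshold of 0.05 (18.6%), of which 2035 were higher in ST (10.9%) and 1438 were lower (7.68%). The higher genes had a median difference of 1.58 on the log2(FPKM + 1) scale and the lower genes one of -1.20. Of the genes at least 1 apart on that scale, 1643 were higher and 985 lower. At 3 or more there were 228 higher genes and 18 lower, and at 5 or more 25 and 2. One lower gene in each of these counts is Xvis03_219852, listed at 0 in dry ST and described below. All 3 ST libraries stood above all 3 NST libraries for 3248 tested genes (17.4%), and all 3 below for 2887 (15.4%), together 6135 genes (32.8%). Among the called genes the groups did not overlap for 1823 of the 2035 higher and 1349 of the 1438 lower.

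The length of the list depended on 2 libraries and on the fit. Without ST replicate 0 it held 928 higher and 797 lower genes, of which 904 and 772 were in the full list, and without NST replicate 2 it held 1131 and 849. The column numbers 0, 1 and 2 paired the ST and NST libraries, and with the replicate number as a block 4002 genes were higher and 3332 lower, among them all 2035 and all 1438 called without it. With only these 6 libraries in the fit the total was 241, and with the replicate block as well it was 1. It was 1771, without the block, when the filter on low values was also applied to these 6 libraries. Quantile normalization turned the balance, from 58.6% to 47.9% higher (1467 higher and 1594 lower).

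The pairs of libraries with the same number showed how far the gap itself varied. Pair 0 was widest, with a root mean square difference of 1.26 (log2), pair 2 had 1.12 and pair 1 had 0.837. Genes at least 1 higher in ST numbered 3547 in pair 0, 1843 in pair 1 and 2832 in pair 2, and genes at least 1 lower numbered 2267, 1373 and 2249. A core of 1106 genes was at least 1 higher in every pair and 507 were at least 1 lower in every pair, while 203 genes were at least 1 higher in one pair and at least 1 lower in another. Described across the 18717 tested genes, and genes are no independent replicates, the differences of the pairs had Pearson correlations of 0.669 (pairs 0 and 1), 0.714 (pairs 0 and 2) and 0.678 (pairs 1 and 2). These pairs share no library. The median difference over all tested genes was 0.0329, 0 and 0, so the middle of the distribution lay at or near 0 in each pair. With 0.1 added to FPKM in place of 1, the root mean square differences were 1.69, 1.26 and 1.65 in pairs 0, 1 and 2, so pairs 0 and 2 were close. Genes at least 1 higher in ST then numbered 4604, 2946 and 3856. Genes at least 1 lower numbered 3484, 2674 and 3702, so the upward excess was smaller in proportion. In every pair 1628 genes were at least 1 higher and 921 at least 1 lower.

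**Figure D1:**
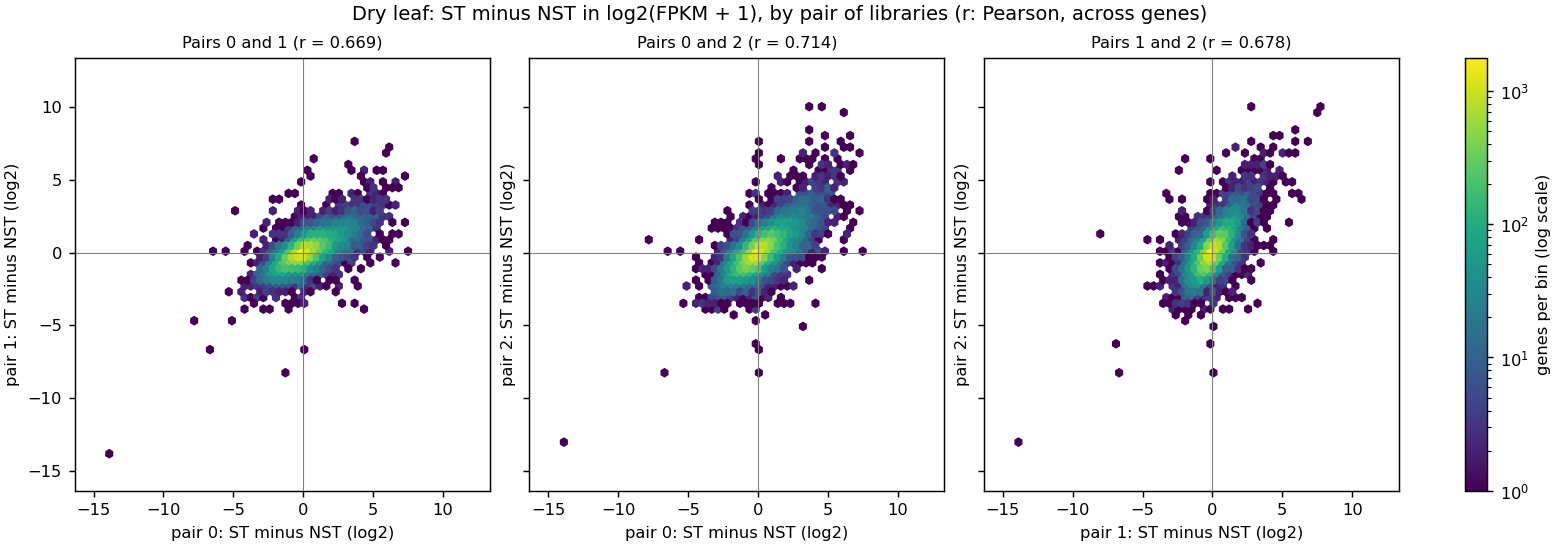
Difference between ST and NST in the dry leaf for every tested gene in one pair of libraries against another (log2(FPKM + 1), both axes), with shading for the number of genes per bin on a log scale. The genes spread along the diagonal in all 3 panels, with r between 0.669 and 0.714, and the cloud reaches further upward than downward, apart from the lone point at the lower left, Xvis03_219852, which is listed at 0 in dry ST.

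No summary of a whole library separated the dry tissues past a threshold, which 3 against 3 libraries cannot reach here. Genes at 1 FPKM or more numbered 14972, 14557 and 14474 in ST replicates 0, 1 and 2 and 14375, 14390 and 14305 in NST. The groups did not overlap, and the two-sided exact permutation p was 0.1, the smallest that 3 against 3 allows. At a limit of 0.1 FPKM the groups overlapped and the order of the means was turned, with 17905 genes in ST and 18081 in NST (exact permutation p = 0.6). The 10 highest genes of a library held 13.6%, 14.3% and 16.7% of the summed FPKM in ST and 21.6%, 17.5% and 16.0% in NST, groups that overlap (exact permutation p = 0.2). Of these 10 highest genes, 7 were common to all 3 ST libraries and 9 to all 3 NST libraries, and 5 were common to all 6. Xvis03_219852, listed at 0 in dry ST and at 8460.79 to 13775 FPKM in dry NST, was not left out of these shares and counts. The summed FPKM was 980887 ± 72464 in ST and 866584 ± 108660 in NST (SD, n = 3 each, exact permutation p = 0.3).

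The called genes took up very different shares of the 2 tissues. The 2035 genes called higher held 23.3%, 11.3% and 12.0% of the summed FPKM in ST replicates 0, 1 and 2, against 4.31%, 4.54% and 3.54% in NST. The 1438 genes called lower held 2.14%, 2.99% and 2.41% in ST and 11.9%, 9.72% and 10.4% in NST. Without Xvis03_219852, listed at 0 in dry ST, the NST shares were 10.5%, 8.26% and 9.31%. These genes were chosen on these libraries, so the gap between ST and NST follows from the choice and is given as a description. Within ST, replicate 0 carried the higher genes at about 2 times the share of the others. In bulk tissue, fewer cells of a type and less RNA per cell cannot be told apart.

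In the genes called between dry ST and dry NST, dry PST stood nearer to NST than to ST. Its libraries entered the filter and the variance of the fit that called the genes, but not the difference itself. Its 3 libraries gave 6.16%, 5.75% and 5.65% of the summed FPKM to the higher genes and 10.4%, 8.81% and 8.75% to the lower genes (8.40%, 6.78% and 7.53% without Xvis03_219852). On a scale where dry NST is 0 and dry ST is 1, the median of the 1643 genes at least 1 higher in ST stood at 0.327, 0.197 and 0.111 in PST replicates 0, 1 and 2. The 985 genes at least 1 lower stood at 0.13, 0.229 and 0.0719. Genes chosen for their dry ST and NST values need not put PST at 0 where PST equals NST, and a value for no difference was not estimated. Between 76.3% and 88.5% of the higher genes and between 84.1% and 91.4% of the lower genes were nearer to NST than to ST in each PST library.

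**Figure D2:**
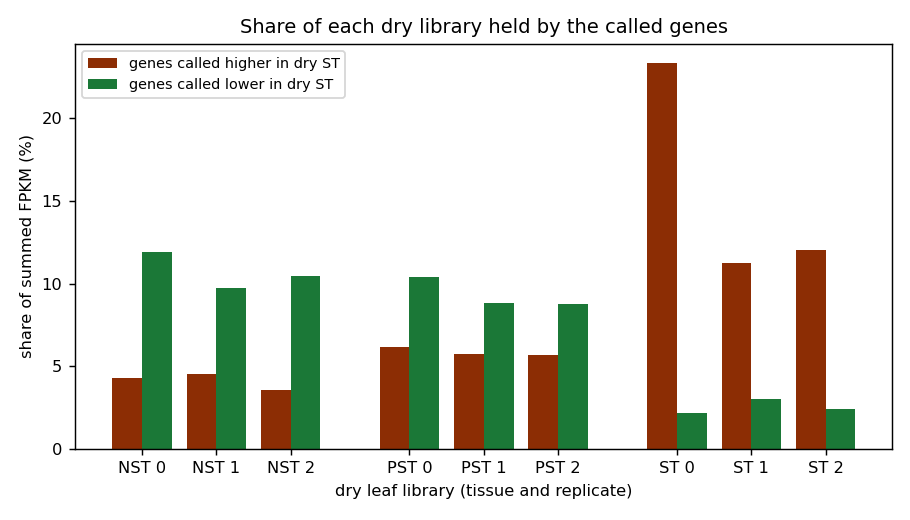
Share of the summed FPKM (percent) held in each dry library by the genes called higher in dry ST and by those called lower, for 3 NST, 3 PST and 3 ST libraries. The higher genes hold 11.3% to 23.3% in ST and at most 6.16% elsewhere, and the ST and NST values follow from the choice of the genes.

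A rule over the called genes named 4 IDs. In each direction it took the gene with the largest log2 difference and the gene with the largest difference in mean FPKM, among 1042 eligible higher and 886 eligible lower genes whose libraries did not overlap and which reached 1 FPKM in all 6. The table gives no name or function for any of them.

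Xvis03_200093 had the largest rise. It stood at 2219.61, 3007.39 and 2182.43 FPKM in ST replicates 0, 1 and 2 and at 153.94, 14.5 and 1.06 FPKM in NST. The ST libraries were close to each other and far above the NST libraries, which ran over more than 2 orders of magnitude. The difference was 7.16 (log2, SE 1.30, limma adjusted p = 0.000135), and it was 3.84, 7.60 and 10.05 in pairs 0, 1 and 2. Fitted on the compared groups alone it missed the threshold (limma adjusted p = 0.0613, and 0.0685 with the block). Dry PST stood at 518.49, 87.02 and 21.35 FPKM, each between the NST and ST libraries of its number, and PST replicates 1 and 2 were below NST replicate 0. The ST libraries were also above all NST libraries at full turgor (445.59 to 714.55 against 199.18 to 292.71 FPKM), 75% (589.06 to 4068.28 against 13.26 to 140.64 FPKM), 55% (1250.31 to 3554.56 against 15.81 to 309.13 FPKM) and 35% RWC (291.32 to 1767.28 against 4.49 to 48.96 FPKM). In NST the gene was lower in all 3 dry libraries than in any full-turgor library, whereas in ST it was higher.

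Xvis03_218821 had the largest gain in FPKM and was the second most abundant transcript of ST replicate 0. It stood at 21011.6, 4217.46 and 7287.69 FPKM in ST replicates 0, 1 and 2 and at 969.6, 589.15 and 5.9 FPKM in NST, a log2 difference of 5.77 (SE 1.59, limma adjusted p = 0.00849). The call rested on single libraries: without ST replicate 0 limma gave an adjusted p = 0.0627, and without NST replicate 2 a difference of 3.51 with an adjusted p = 0.167. Dry PST stood at 2508.24, 1382.7 and 1245.8 FPKM, above every dry NST library and below every dry ST library. ST exceeded NST before any drying too, at 178.37 to 1058.82 FPKM in ST and 1.27 to 2.59 FPKM in NST at full turgor.

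Xvis03_221590 had the largest fall among the eligible genes. It stood at 27.89, 28.36 and 24.36 FPKM in ST replicates 0, 1 and 2 and at 432.94, 255 and 327.36 FPKM in NST, so the lowest NST library was far above the highest ST library. The log2 difference was -3.58 (SE 0.92, limma adjusted p = 0.00493), and it missed the threshold only with the compared groups alone and the block in the fit (adjusted p = 0.0625, from 0.000154 over the alternatives). Dry PST lay between at 43.42, 78.23 and 211.65 FPKM. The gene started low in both tissues (1.35 to 3.00 FPKM in NST and 1.81 to 13.77 FPKM in ST at full turgor). At 75% and 55% RWC the tissues overlapped, and at 35% RWC they still did (76.96 to 156.73 FPKM in NST and 20.16 to 107.74 FPKM in ST).

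Xvis03_207042 was among the 5 most abundant transcripts of all 3 dry NST libraries. It stood at 36402.9, 19136.7 and 11786 FPKM in NST replicates 0, 1 and 2 and at 5128.98, 3072.27 and 2590.81 FPKM in ST. The log2 difference was -2.55 (SE 0.83, limma adjusted p = 0.0267, and 0.000282 with the replicate block), and the pairs gave -2.83, -2.64 and -2.19. The unblocked call did not hold without NST replicates 0 or 1 or ST replicates 1 or 2, with limma adjusted p values between 0.0543 and 0.118, nor after quantile normalization (adjusted p = 0.0707). In NST it was higher at each drier stage by its mean, from 35.1 ± 23.9 FPKM at full turgor to 22442 ± 12637 FPKM when dry (SD, n = 3 each). In ST its mean was 95.9 ± 122 FPKM at full turgor, 2192 ± 576 FPKM at 75%, 3118 ± 796 FPKM at 55% and 7426 ± 5194 FPKM at 35% RWC, and 3597 ± 1348 FPKM when dry (SD, n = 3 each). NST was above ST by its mean at all 4 drying stages, with 5998 ± 2766 FPKM at 75% RWC. After 48 h of water the order was turned, with 96.04 to 436.98 FPKM in NST and 20932.1 to 29247.5 FPKM in ST.

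**Figure D3:**
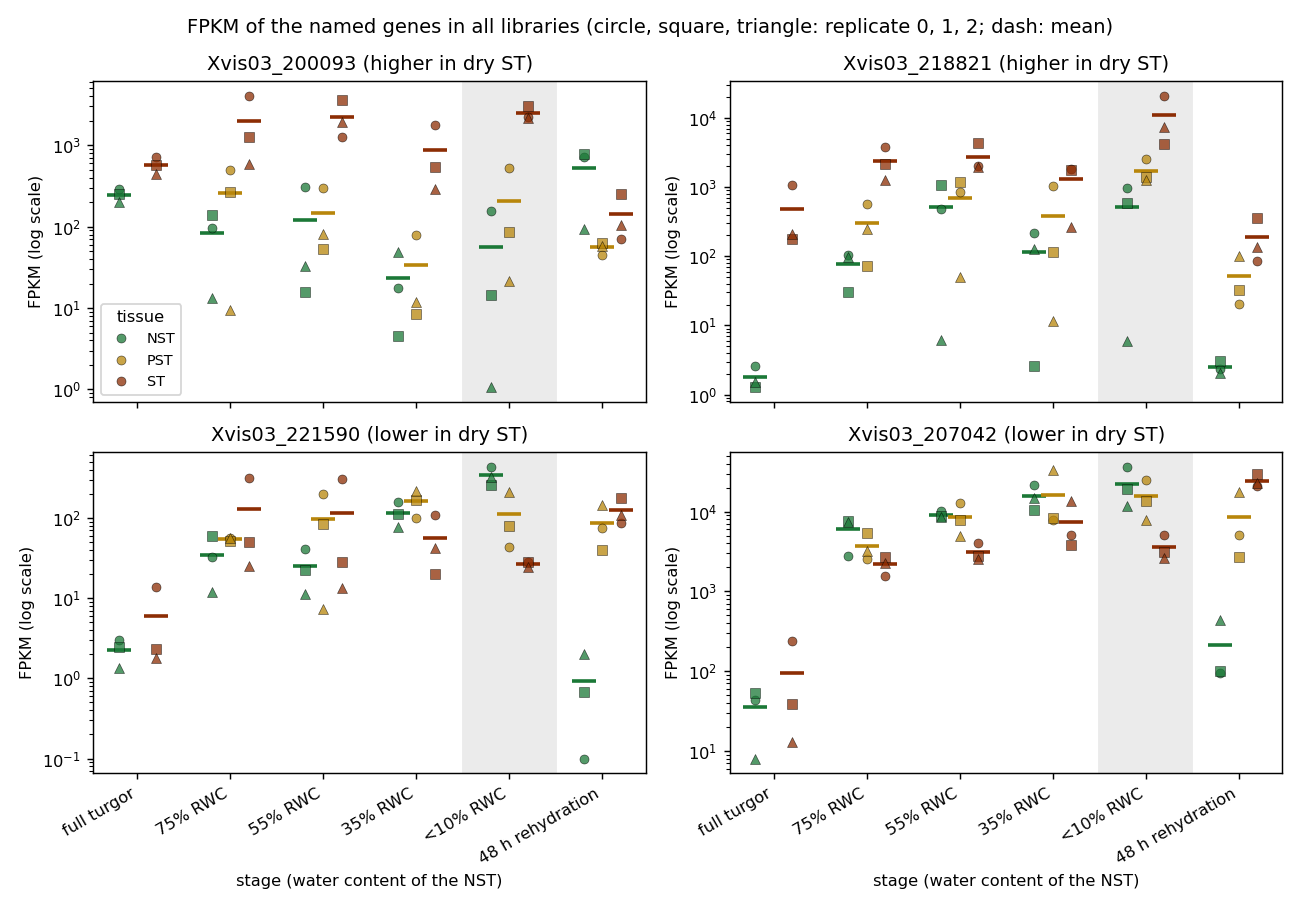
FPKM (log axis) of the 4 named genes in all 51 libraries by stage and tissue, with symbols for replicates 0, 1 and 2 and a dash for the group mean. In the shaded dry stage the ST libraries lie above all NST libraries in the upper panels and below them in the lower panels, and PST libraries lie between or near NST.

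A few genes were listed at exactly 0 in one dry tissue. A set of 11 entries was at 0 in all 3 dry NST libraries and at 1 FPKM or more in all 3 dry ST libraries, where they ran from 1.14 to 58.02 FPKM. None of the 11 reached 1 FPKM in all 3 dry PST libraries. Another 5 were at 0 in all 3 dry ST libraries and at 1 FPKM or more in dry NST. One of these 5, Xvis03_219852, singled out after its values were seen, stood at 8460.79 to 13775 FPKM in dry NST and 9100 to 18716.3 FPKM in dry PST. It was at 0 in all libraries of 5 groups, among them NST at 55% RWC, between stages at which it stood at 2192.79 to 15560.1 FPKM (75% RWC) and 6434.69 to 18060 FPKM (35% RWC). It counts among the 1438 lower genes (limma adjusted p = 8.27e-18), and since an exact 0 can be a failed estimate, no fold is given.

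Genes were next grouped by their drying response in the other 45 libraries, and early and late groups were not tested against each other. They were called risen or fallen in those libraries at an adjusted p under 0.05 and a change of at least 1 (log2). Early genes had changed against full turgor in NST at 75% and at 35% RWC, and late genes had changed at 35% RWC but did not pass the threshold at 75% RWC. These groups were defined in NST alone, which favours genes that respond more in NST than in ST. The difference between dry ST and NST that this choice alone would give was not estimated.

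Late genes were shifted in dry ST towards the hydrated level. Of 1673 late risen genes, 232 were lower in dry ST (13.9%, against 7.68% of all tested genes) and 57 higher (3.41%, against 10.9%). Their median difference was -0.26, and -0.39, -0.17 and -0.20 in pairs 0, 1 and 2. Of 1975 late fallen genes, 316 were higher in dry ST (16.0%) and 40 lower (2.03%), with a median difference of 0.28, and 0.46, 0.21 and 0.19 in the pairs. Over all tested genes the median was 0.01. Relative to NST at full turgor, the late risen genes had a median of 1.66, 1.65 and 1.67 (log2) in dry NST replicates 0, 1 and 2, of 1.65, 1.70 and 1.71 in dry PST and of 1.31, 1.55 and 1.56 in dry ST. The late fallen genes stood at -1.67, -1.59 and -1.69 in dry NST, at -1.69, -1.64 and -1.64 in dry PST and at -1.28, -1.43 and -1.52 in dry ST. In both lists the 3 ST libraries lay apart from all NST and PST libraries, ST replicate 0 farthest. At 35% RWC the mean of the libraries was 1.63 and -1.65 in NST and 1.52 and -1.52 in ST. The NST libraries at 35% RWC chose these genes, so the gap at that stage follows in part from the choice. ST at 35% RWC was already near dry ST replicates 1 and 2. Without ST replicate 0, 107 late risen genes were lower and 122 late fallen genes were higher, with medians of -0.16 and 0.21. Without NST replicate 2 the counts were 126 and 177, with medians of -0.24 and 0.27. With the replicate block 530 late risen genes were lower and 191 higher, and 603 late fallen genes were higher and 153 lower. Quantile normalization gave medians of -0.40 and 0.18.

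Early genes gave a less uniform picture. Of 1127 early risen genes, 100 were higher (8.87%) and 74 lower (6.57%), not far from the 10.9% and 7.68% of all genes tested. Their median was 0.07, but -0.13 after quantile normalization and -0.01 without ST replicate 1. The pairs gave -0.07, 0.17 and 0.19, so pairs 1 and 2 were about as far above 0 as they were below it for the late risen genes, and pair 0 was on the other side. Their level above full turgor was 2.63, 2.90 and 2.63 in dry ST and 2.63, 2.57 and 2.36 in dry NST. Of 2156 early fallen genes, 206 were higher (9.55%, near the 10.9% of all genes) and 58 lower (2.69%, below the 7.68% of all genes). Their median was 0.01, and the ST libraries overlapped the NST libraries. With the block the counts were 258 higher and 183 lower for the early risen genes and 370 and 219 for the early fallen genes. Without ST replicate 0 they were 46 and 30, and 97 and 31, and without NST replicate 2 they were 30 and 44, and 136 and 26.

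Genes higher in rewatered ST than in rewatered NST were more often lower than higher in dry ST. Of 3393 genes higher in rehydrated ST than in rehydrated NST, 498 were lower in dry ST (14.7%) and 164 higher (4.83%), with a median of -0.17 (-0.32 after quantile normalization) and with -0.30, -0.07 and -0.11 in the pairs. Of 4800 genes lower in rehydrated ST, 552 were higher in dry ST (11.5%, near the 10.9% of all genes) and 91 lower (1.90%), with a median of 0.09 and with 0.21, 0 and 0.03 in the pairs. Without ST replicate 0, 301 of the former were lower and 239 of the latter higher, without NST replicate 2 these were 338 and 329, and with the block 960 and 1049. Genes changed in rehydrated NST against full turgor showed no shift of the median, at 0 for 1275 higher and 0.01 for 1099 lower genes (-0.03 and -0.01 after quantile normalization). Of the former, 114 were higher in dry ST (8.94%) and 46 lower (3.61%), and of the latter 132 were higher (12.0%) and 156 lower (14.2%), beside 10.9% and 7.68% of all genes. Of 2306 genes that stayed within 0.5 of full turgor in NST at 75%, 55% and 35% RWC and after rehydration, 288 were higher in dry ST (12.5%) and 196 lower (8.50%), shares near those of all genes, and 138 and 106 without ST replicate 0, 178 and 109 without NST replicate 2, and 486 and 449 with the block. PST gave almost no group of its own for the last step of drying, with 3 genes risen and 0 fallen from 35% to <10% RWC by limma.

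The genes that had set ST apart at 75% RWC were the most shifted group. Of 217 genes higher in ST than in NST at 75% RWC, 147 were also higher in dry ST (67.7%, against 10.9% of all genes tested). Only 2 were lower (0.92%, against 7.68%). These 147 are 7.22% of all 2035 higher genes. The median difference in dry leaves was 2.20, and 2.77, 1.58 and 2.14 in the pairs. Relative to NST at full turgor the group stood at 4.17, 2.61 and 2.88 (log2) in dry ST replicates 0, 1 and 2, at 1.25, 0.79 and 0.29 in dry NST and at 1.87, 1.15 and 1.35 in dry PST. The 3 ST libraries were above all others, and PST of each number was above NST of that number. Without ST replicate 0, 107 were called higher with a median of 1.76. The 115 genes lower in ST at 75% RWC behaved otherwise. Of these, 11 were lower in dry ST (9.57%, near the 7.68% of all genes) and 1 higher (0.87%, against 10.9%). Their median was -0.25, and 5 were lower without ST replicate 0 or without NST replicate 2, and 27 with the block.

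The 2 lists from 75% RWC took different courses through drying. The median gap of the 217 higher genes was 0.49 ± 0.33 at full turgor, 1.80 ± 0.47 at 55%, 0.88 ± 0.61 at 35% and 2.16 ± 0.59 at <10% RWC (SD, n = 3 pairs each). After rehydration, where the numbers did not pair the libraries, the median difference of the group means was 0.31. That of the 115 lower genes was -0.04 ± 0.08 at full turgor, -1.08 ± 0.18 at 55%, -0.49 ± 0.35 at 35% and -0.27 ± 0.20 at <10% RWC, and the group means differed by a median of -1.39 after rehydration. No library is shared between these stages. The deviations of the pairs from their mean gap had correlations of -0.064, -0.017 and -0.047 between the dry stage and 75% RWC for pairs 0, 1 and 2. Within a tissue, deviations of same-number libraries correlated between these stages at 0.28, -0.022 and 0.53 in ST and -0.0061, -0.16 and 0.33 in NST. Libraries of different numbers gave -0.44 to 0.093 in ST and -0.32 to 0.37 in NST. That the libraries of the 2 stages are independent is thus not shown.

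**Figure D4:**
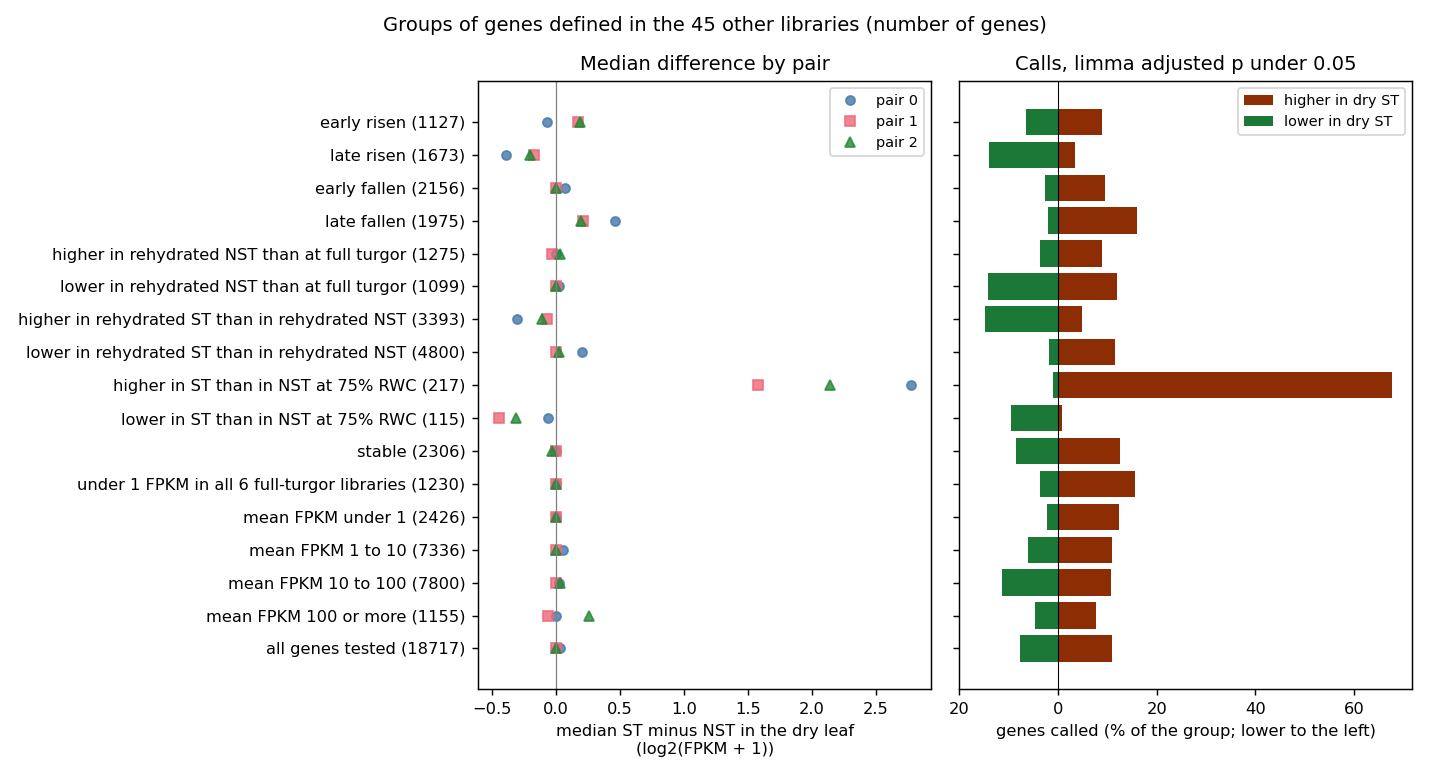
Groups of genes defined in the 45 other libraries, with the number of genes in brackets: left, median ST minus NST (log2(FPKM + 1)) in each dry pair; right, the percentage of the group called higher (to the right) or lower (to the left) in dry ST. The 217 genes higher in ST at 75% RWC stand out with 67.7% called higher, and the late risen and late fallen genes lie on opposite sides of 0 in all 3 pairs.

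The split of the calls was also counted by level of expression, beside 10.9% higher and 7.68% lower among all genes tested. By their mean FPKM in the 45 other libraries, 298 of 2426 genes under 1 FPKM were higher in dry ST (12.3%) and 52 lower (2.14%). From 1 to 10 FPKM, 808 of 7336 genes were higher (11.0%) and 447 lower (6.09%). From 10 to 100 FPKM the split was 841 higher (10.8%) and 885 lower (11.3%) of 7800 genes, which made up 61.5% of all lower calls. Of the 1155 genes at 100 FPKM or more, 88 were higher (7.62%) and 54 lower (4.68%), but 41 and 77 after quantile normalization, 29 and 17 without ST replicate 0 and 21 and 29 without NST replicate 2. Of 1230 genes under 1 FPKM in all 6 full-turgor libraries, 191 were higher in dry ST (15.5%) and 44 lower (3.58%). A total of 204 genes, of which 82 were called higher and 8 lower, passed the filter only through these 6 dry libraries, and a gene that enters the test through one tissue is likely to differ. Without them 216 of 2222 genes under 1 FPKM were higher (9.72%) and 44 lower (1.98%), and 121 of 1049 genes under 1 FPKM at full turgor were higher (11.5%) and 36 lower (3.43%), beside 10.5% and 7.72% of the 18513 genes left.

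The genes called in the dry leaf leaned the same way at 35% RWC, the stage before. The libraries at 35% RWC entered the filter and the variance of the fit that called the genes, but not the difference itself. That they are independent of the dry libraries was not shown. The 2035 higher genes had a median gap of 0.37, 0.59 and 0.11 (log2) at 35% RWC in pairs 0, 1 and 2, and 85.8% of them were higher in ST by the mean, against 48.3% of all tested genes. At 75% RWC 78.0% were higher in ST, at 55% RWC 72.7% and at full turgor 66.7%. In the dry leaf the median gaps were 2.05, 1.10 and 1.58, where the choice of genes favours them. The 1438 lower genes stood at -0.18, -0.23 and -0.11 at 35% RWC, with 80.0% lower in ST, against 50.7% of all tested genes. At full turgor 59.7% were lower (52.5% of all genes), at 75% RWC 51.9% and at 55% RWC 49.7%, the last 2 close to all genes (51.5% and 50.3%). After 48 h of water both lists had turned. Of the higher genes 35.0% were still higher in ST (44.8% of all genes), with a median difference of the group means of -0.28. Over all tested genes that median was -0.135, so part of the -0.28 was a shift common to all genes. Of the lower genes 73.9% were higher in ST, with a median of 0.59.

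**Figure D5:**
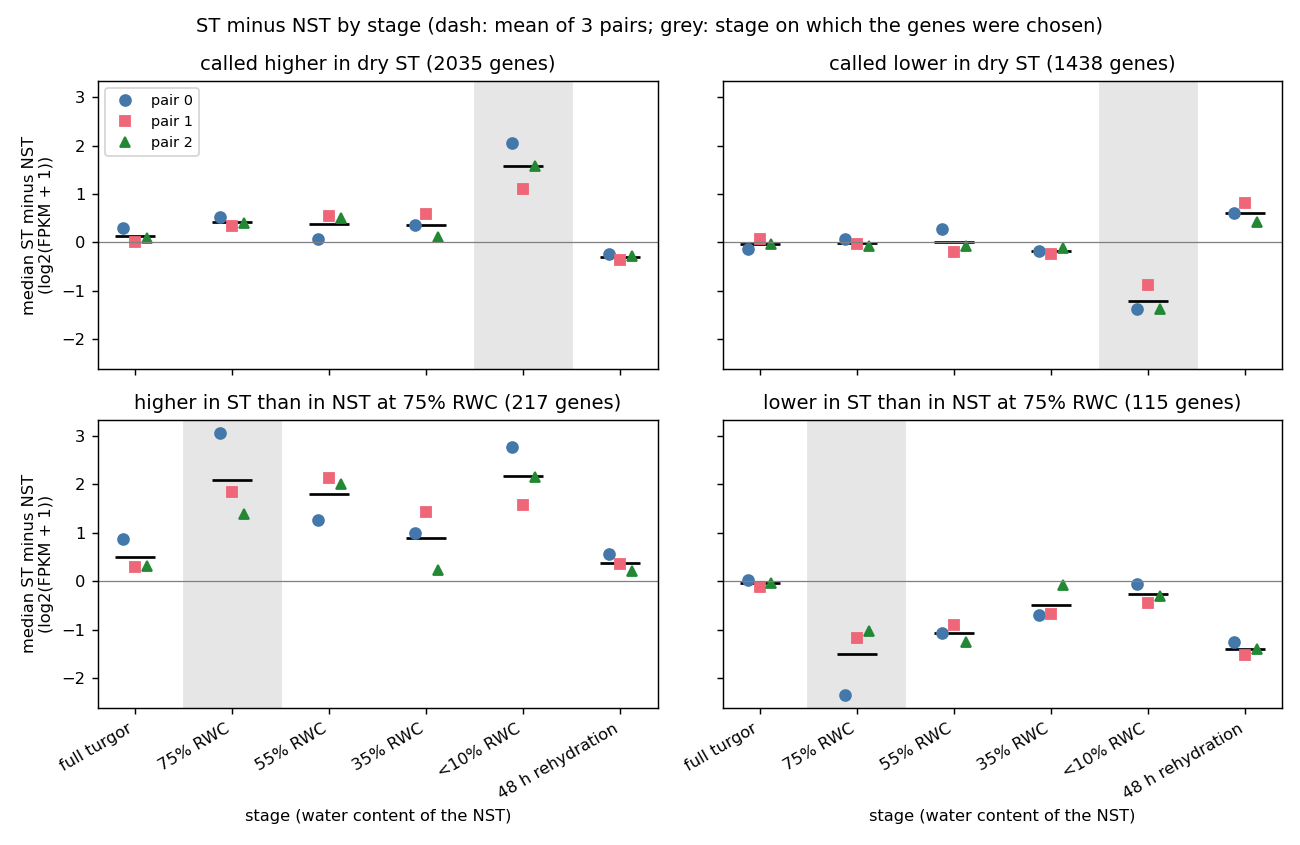
Median ST minus NST (log2(FPKM + 1)) in each of 3 pairs of libraries by stage (after rehydration libraries of the same number, which were not paired), with a dash for the mean of the pairs and grey for the stage on which the genes were chosen. The upper lists reach 1.10 to 2.05 and -0.88 to -1.38 in the dry leaf and lie on the other side of 0 after rehydration, and the lower left list is above 0 at all stages.

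Measured from NST at 35% RWC, the medians of the called genes lay farther from 0 in dry ST than in dry NST. The 2035 higher genes had a median of 0.25, 0.18 and -0.13 (log2) in dry NST replicates 0, 1 and 2, of 0.58, 0.39 and 0.26 in dry PST and of 2.32, 1.33 and 1.41 in dry ST, against 0.49, 0.45 and 0.12 in ST at 35% RWC. The 1438 lower genes had 0.04, -0.09 and 0.14 in dry NST, -0.13, -0.23 and -0.04 in dry PST and -1.35, -0.96 and -1.21 in dry ST, against -0.26, -0.11 and -0.12 in ST at 35% RWC. The dry ST and NST values follow in part from the choice of genes, and whether the genes moved in ST or in NST was not tested.

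Whether the gap of the dry leaf differed from that at 35% RWC was tested gene by gene. The gap was more upward at <10% RWC for 65 genes (0.347%) and more downward for 108 (0.577%), together 0.924% of the genes tested (limma). With the replicate block, whose numbers paired the libraries at both stages, the counts were 1391 and 1137. Neither the number nor the balance was settled. The total of 173 ran from 22 without dry NST replicate 2 and 25 without dry ST replicate 0 to 637 without dry ST replicate 1, where 333 were upward. It also moved by over 1.5 times without dry NST replicate 0 (94), NST at 35% RWC replicates 0 and 2 (46 and 84) or any ST library at 35% RWC (58, 86 and 82 without replicates 0, 1 and 2). Of the 4 named genes none passed, with differences of 1.92 for Xvis03_200093 (limma adjusted p = 0.762), 1.41 for Xvis03_218821 (adjusted p = 0.902), -2.31 for Xvis03_221590 (adjusted p = 0.489) and -1.33 for Xvis03_207042 (adjusted p = 0.726). The threshold not being reached does not show that the gaps were alike.

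The gap of the dry leaf differed from that after rehydration in 50.9% of the genes tested, with 5565 more upward in the dry leaf (29.7%) and 3959 more downward (21.2%, limma). The share upward was 58.4%, and 47.5% after quantile normalization. Rehydrated ST and NST themselves were at least 1 (log2) apart for many genes, 3393 higher and 4800 lower in ST. The 50.9% is therefore not a trait of the dry leaf alone. Among the named genes the difference was 8.77 (SE 1.84) for Xvis03_200093 (limma adjusted p = 0.00016), where ST was above NST only in the dry leaf of these 2 stages by the group means. It was -9.65 (SE 1.30) for Xvis03_221590 (limma adjusted p = 1.98e-07) and -9.76 (SE 1.17) for Xvis03_207042 (adjusted p = 2.32e-08), both below NST in dry ST and above it in rehydrated ST. Xvis03_218821 was higher in ST at both stages, and the gaps did not differ past the threshold (0.24, SE 2.24, limma adjusted p = 0.939).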

How the data were processed

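The authors deposited FPKM values in 1 table with a column for each library. Per the submitters' processing notes, Bowtie2, TopHat and Cuffdiff were used. The sources used here give no versions, build or filters. Median-ratio factors against the mean of the 51 libraries, over genes above 0 in each, put the 6 compared libraries between 1.019 and 1.029. By that measure the values as given were already close to a common scale, although the summed FPKM differed between libraries. Absolute depth is unknown. The steps of the lowest values could be read in more than one way in ST, so relative depth is not given, and precision at low FPKM cannot be ranked. Entries sharing an ID (499 IDs, 1032 entries) stayed separate.

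Genes with FPKM of at least 1 in at least 3 of 51 libraries were tested on log2(FPKM + 1), a scale that understates changes of low genes. The model had a mean for each of the 17 groups and a variance trend (limma 3.58.1, R 4.3.3, 34 residual degrees of freedom). Its p-values are two-sided and adjusted by Benjamini-Hochberg over all genes tested, and those of library totals come from exact permutation tests. The fit was tested on simulated data. Columns name group and number, not sample. Deviations from group means correlated between same-number ST and NST libraries at 0.54, 0.39 and 0.48 at <10% RWC, 0.71, 0.54 and 0.67 at 35%, 0.49, 0.66 and 0.73 at 55%, 0.51, 0.71 and 0.66 at 75% RWC and 0.68, 0.68 and 0.75 at full turgor, so the numbers pair libraries there. The block had 1 term per stage and number (22 degrees of freedom). Named genes: IDs occurring once, limma adjusted p under 0.05, at least 1 FPKM in all 6 libraries, a mean of at least 10 FPKM in the higher group, no overlap. Other alternatives were pseudocount, filter, scaling, library weights, unique IDs and leaving out libraries. Groups, lists and rules were chosen with earlier results of these data known.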

Additional observations from a re-analysis of the deposited data

Results flagged for a closer look

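The gap between ST and NST differed between stages by limma's test of the difference itself. Between <10% and 35% RWC it differed for 173 genes. Between <10% RWC and 48 h of rehydration it differed for 9524 genes. Among the named genes the gap of the dry leaf minus that after rehydration was 8.77 for Xvis03_200093, -9.65 for Xvis03_221590 and -9.76 for Xvis03_207042 (log2).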

How the results depend on the processing

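The dry ST against NST total of 3473 stayed within 1.5 times, between 3061 and 3658, under a pseudocount of 0.1, a filter of 5 FPKM, no filter, quantile normalization, library weights and unique IDs. The replicate block gave 7334. With only the compared groups the total was 241, with the block as well it was 1 (6369 genes at an unadjusted p under 0.05, limma), and with the filter on those libraries, an alternative chosen after seeing the data, it was 1771. Leaving out 1 library gave 1725 to 3547. Of the tested genes, 241 were at 0 in all 6 libraries and 1881 under 1 FPKM in all 6, and the filter on those libraries left 14949. The difference between the gaps at <10% and 35% RWC (173 genes) was 2528 with the replicate block, 94 after quantile normalization, 546 with library weights, 2 with only the compared groups and 1 with the block as well, and leaving out 1 library gave 22 to 637. The cause was not tested. The difference between the gaps at <10% RWC and rehydration (9524 genes) ran from 8073 (a filter of 5 FPKM) to 12489 over all alternatives, and from 8466 to 9315 without 1 library. The rehydrated libraries were not paired by number (correlations 0.24, -0.059 and 0.28), and the block gave 12489 there. No named difference between dry ST and NST changed sign. Fitted on the compared groups alone, Xvis03_200093, Xvis03_218821 and Xvis03_207042 had limma adjusted p values of 0.0613, 0.139 and 0.114. Without a record of fragments, depth limits what can be said of genes near 1 FPKM.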
